A study of Mus musculus with 2 samples.

Results

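The redox selenoproteins examined here are the products of 10 mouse genes, taken by name from the authors' gene table and followed into the 51 transcripts that their transcript table lists under the same gene IDs. They fall into 3 glutathione peroxidases (Gpx1, Gpx3 and Gpx4), 3 thioredoxin reductases (Txnrd1, Txnrd2 and Txnrd3) and 4 other small or mitochondrial redox selenoproteins (Msrb1, Selenow, Selenoh and Selenoo), of 51826 genes and 128622 transcripts in all. The rule selects by gene name and uses no measured value, but the list itself was drawn up with earlier results of these data known. RNA was taken at postnatal day 7, a time of active myelination, from the spinal cord of mice of the C57BL/6 strain, with 1 library from wild-type animals (WT) and 1 library from animals labelled Olig1-Cre;Secisbp2l-floxed(Ex3) (cKO). Olig1-Cre drives recombination mainly in the oligodendrocyte lineage, and the library holds RNA of all the other cells of the cord as well, and how many animals each library represents is not in the labels. No value could be checked against a replicate, because each group had 1 library, and no p-value was computed.

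Selenoproteins carry selenocysteine, an amino acid placed at a UGA codon that would otherwise stop translation. Its insertion needs a stem-loop in the 3′ untranslated region of the mRNA, the SECIS element, and SECISBP2, the protein that binds it. SECISBP2L, the product of the targeted gene, is a relative of SECISBP2. Where the UGA is read as a stop and an exon junction lies far enough downstream, an mRNA can be degraded by nonsense-mediated decay, which is why selenoprotein mRNA levels are followed when this machinery is changed. In the glutathione peroxidases, the thioredoxin reductases and MSRB1 the selenocysteine is a catalytic residue. Glutathione peroxidases reduce hydrogen peroxide and lipid peroxides with glutathione, thioredoxin reductases recycle thioredoxin with NADPH, and MSRB1 repairs oxidised methionine.

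The coding sequence around the selenocysteine codon is shown for the most abundant transcript of each gene in WT, because the position and surroundings of this codon are what the members have in common. Sequences are from GENCODE M21 transcripts (GRCm38), 5′ to 3′, with up to 33 coding bases before the codon and up to 30 after it, and the selenocysteine codon TGA in capitals. The 4 sequences that are cut short after the TGA end with the stop codon.
Gpx1-201: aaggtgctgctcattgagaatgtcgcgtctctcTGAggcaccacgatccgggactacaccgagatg
Gpx3-201: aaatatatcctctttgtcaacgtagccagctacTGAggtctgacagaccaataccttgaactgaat
Gpx4-202: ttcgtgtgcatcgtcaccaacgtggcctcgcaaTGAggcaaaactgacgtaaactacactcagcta
Txnrd1-206: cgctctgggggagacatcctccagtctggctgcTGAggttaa
Txnrd2-215: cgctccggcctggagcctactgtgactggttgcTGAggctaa
Txnrd3-201: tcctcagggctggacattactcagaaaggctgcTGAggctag
Msrb1-202: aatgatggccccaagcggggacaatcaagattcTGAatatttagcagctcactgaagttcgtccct
Selenow-201: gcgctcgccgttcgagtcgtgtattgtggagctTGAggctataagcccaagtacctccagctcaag
Selenoh-203: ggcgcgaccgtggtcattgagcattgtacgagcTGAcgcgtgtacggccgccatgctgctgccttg
Selenoo-201: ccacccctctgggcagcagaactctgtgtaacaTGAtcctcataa

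The base after the TGA was G in 7 of the 10 transcripts, and A in Msrb1-202, C in Selenoh-203 and T in Selenoo-201. In the 3 thioredoxin reductases the TGA followed directly on the cysteine codon TGC and was separated from the stop codon by 1 codon. In Selenow, Selenoh and Selenoo a cysteine codon, TGT in each, stood 3 codons before the TGA, the spacing of a redox motif of the thioredoxin type. Over the bases printed and aligned on the TGA without gaps, Gpx1 and Gpx4 shared 35 of 66 bases, Gpx3 shared 29 of 66 with each of them, and the thioredoxin reductases shared between 25 and 29 of 42. Selenow and Selenoh shared 23 of 66. On GRCm38 the selenocysteine codons, each inside a coding exon, lie at chr9:108339451-108339453 (Gpx1), chr11:54907256-54907258 (Gpx3), chr10:80054737-80054739 (Gpx4), chr10:82896037-82896039 (Txnrd1), chr16:18477772-18477774 (Txnrd2) and chr6:89674789-89674791 (Txnrd3). Those of the other genes lie at chr17:24740158-24740160 (Msrb1), chr7:15920464-15920466 (Selenow), chr2:84670381-84670383 (Selenoh) and chr15:89099975-89099977 (Selenoo). Selenow and Selenoh are on the minus strand and the others on the plus strand.

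The selenocysteine codon was early in some genes and at the very end in others. It was codon 13 of 88 in Selenow, 38 of 116 in Selenoh, 47 of 201 in Gpx1 and 73 in both Gpx3 (of 226) and Gpx4 (of 197). It was codon 95 of 116 in Msrb1, 498 of 499 in Txnrd1, 526 of 527 in Txnrd2, 614 of 615 in Txnrd3 and 665 of 667 in Selenoo. In these most abundant WT transcripts, an exon junction lay more than 50 nt downstream of the TGA in 6 of the 10. The last junction was 66 nt past it in Msrb1-202, 105 nt in Gpx1-201, 240 nt in Gpx3-201, 243 nt in Selenow-201, 266 nt in Selenoh-203 and 342 nt in Gpx4-202. The main transcripts of the 3 thioredoxin reductases and of Selenoo had no junction after the TGA. Of these, Txnrd1-206 and Txnrd2-215 have an annotated transcript support level of 5, where 1 is the best supported. Txnrd3-201 and Selenoo-201 have level 1. Less abundant forms can differ: Txnrd2-203 has a junction 83 nt past the TGA, and in Msrb1-201 the last junction lies 34 nt past it.

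**Figure D1:**
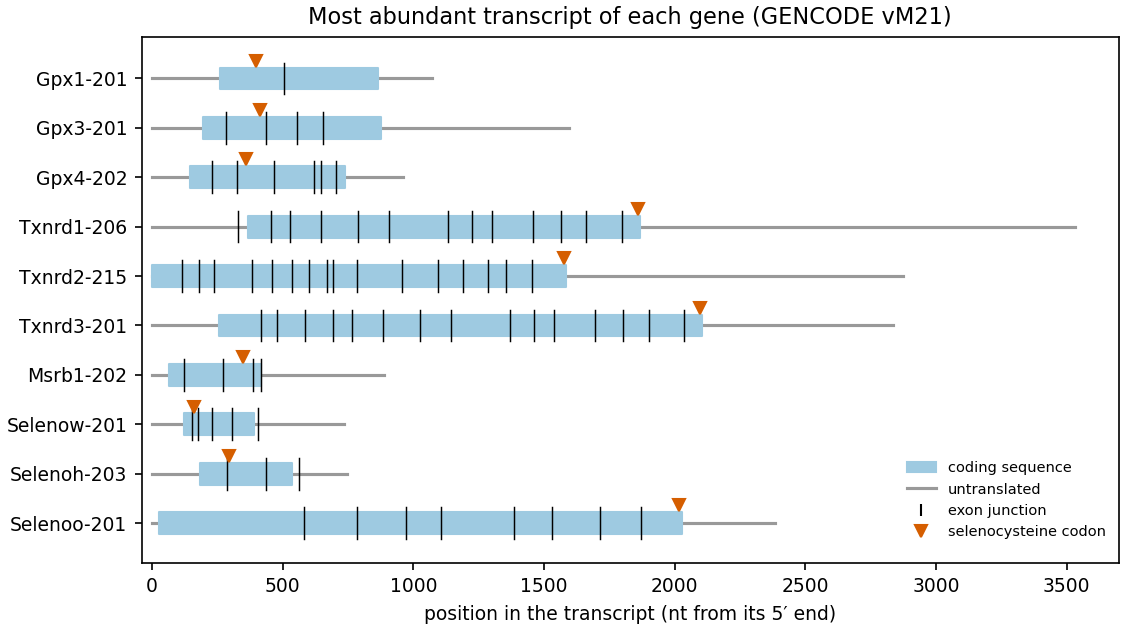
The most abundant transcript of each of the 10 genes, drawn to scale in nucleotides from its 5′ end, with the coding sequence in blue, exon junctions as black ticks and the selenocysteine codon as an orange triangle. The triangle sits at the end of the coding sequence in the 3 thioredoxin reductases and Selenoo, with no junction to its right, and further upstream in the other 6.

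Estimated counts summed to 42875143 in WT and 55179026 in cKO, and were taken as 2 to each sequenced fragment. The members had between 586 and 14047 counts in a library. Intervals below are exact 95% intervals on fragments. They cover counting error alone: they leave out differences between animals, and amplified copies of 1 molecule count separately. CPM are counts per 1000000 after TMM scaling, TPM are transcripts per 1000000, and each ratio is the log2 of cKO divided by WT. Secisbp2l had 588 CPM (WT) and 466 CPM (cKO), with a ratio of -0.34; whole transcripts are estimated, so this does not check the exon 3 deletion. All 8 listed markers of mature oligodendrocytes were lower in cKO by at least 1.5-fold, with summed levels of 15089 and 7844 TPM. The 3 precursor markers lay between -0.27 and -0.07, the 6 astrocyte markers between -0.14 and 0.16, and the 6 neuron markers between 0.06 and 0.26. The 5 red blood cell markers lay between 0.42 and 0.60. The libraries also differed in Xist (35182 and 13 counts) and in Ddx3y (0 and 4280 counts), the pattern of female RNA in WT and male RNA in cKO. Genotype and sex therefore cannot be told apart here for any gene, autosomal genes included.

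Levels were compared between genes in TPM, which is scaled by transcript length. Selenow, a small thioredoxin-like protein abundant in nervous tissue and muscle, was the most abundant member, with 799 TPM in WT (interval 778 to 820) and 798 TPM in cKO (interval 780 to 817). Gpx4, which reduces lipid hydroperoxides in membranes and protects cells from ferroptosis, came next with 485 TPM in WT and 493 TPM in cKO. Together Selenow and Gpx4 made up 80.2% of the members' summed TPM in WT and 78.8% in cKO.

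The other 8 genes lay far below these, and their order was nearly the same in both libraries. Gpx1, the general cytosolic glutathione peroxidase, stood at 67.7 TPM in WT and 77.5 TPM in cKO. Selenoh, a nuclear and nucleolar redox protein, stood at 61.5 and 80.4 TPM, Txnrd1, the cytosolic thioredoxin reductase, at 56.2 and 55.9 TPM, and Gpx3, the secreted peroxidase of extracellular fluid, at 49.8 and 45.6 TPM. Below them were Msrb1 (31.7 and 31.2 TPM), Selenoo, a mitochondrial enzyme that transfers AMP to proteins (23.4 and 23.1 TPM), Txnrd2, the mitochondrial thioredoxin reductase (15.2 and 19.1 TPM), and Txnrd3, the thioredoxin-glutathione reductase known from testis (11.5 and 14.6 TPM). Selenow was 69.4-fold above Txnrd3 in WT and 54.5-fold in cKO. Counting intervals of neighbours in this order overlapped in WT for Gpx1 and Selenoh and for Selenoh and Txnrd1, and in cKO for Selenoh and Gpx1, which changed places. The remaining neighbours had intervals that did not overlap.

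**Figure D2:**
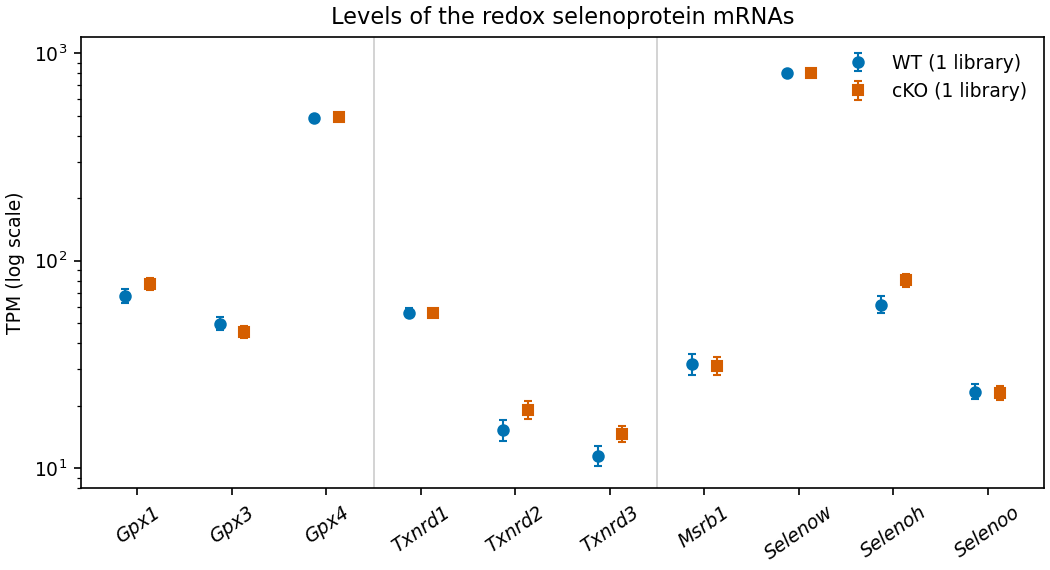
TPM of each gene on a log axis in the WT library (circles) and the cKO library (squares), with exact 95% Poisson intervals on fragments, grouped by role. Selenow and Gpx4 stand above 480 TPM and the other 8 genes below 81 TPM in both libraries.

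For 7 of the 10 redox selenoprotein genes the interval of the ratio held 0, the value for equal levels. It lay above 0 for Selenoh and Txnrd3 and below 0 for Gpx3. The share of all measured genes with such intervals was not computed, so this count has no background beside it. A gene was counted as higher or lower in cKO where the ratio was at least 1.5-fold and its interval left out a ratio of 1. All 10 members passed the filter, a mean of 1 CPM or more over the libraries, and 0 of the 10 were higher and 0 lower by this rule, while 2.46% of the 15917 measured genes were higher and 3.42% lower. The members' median log2 ratio was -0.01, and that of all measured genes 0.01 with quartiles of -0.14 and 0.15. Inside those quartiles lay 7 of the 10 members. With a limit of 0.32 on the log2 scale in place of 1.5-fold, 1 member (Selenoh) was higher and 0 lower, against 6.23% and 7.84% of all measured genes.

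Among the glutathione peroxidases, Gpx4 had nearly equal levels, 206 CPM (WT) and 204 CPM (cKO), with a log2 ratio of -0.01 (interval -0.07 to 0.05). A pseudogene, Gpx4-ps2, holds 73.6% of the 31-base words of Gpx4-202, and it had 170 and 207 counts against 8838 and 11270 for Gpx4, and how reads common to both were divided is the authors' estimate. Gpx1 had 30.8 and 32.4 CPM, a ratio of 0.07 (interval -0.07 to 0.22). Gpx3 had 35.2 and 31.5 CPM, and its ratio of -0.16 (interval -0.31 to -0.02) was the lowest of the 10. Gpx1 is abundant in red blood cells, whose markers were higher in cKO as given above; the part of blood in the Gpx1 value was not tested. In whole tissue, fewer cells of a type and less RNA per cell cannot be told apart.

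Among the thioredoxin reductases, Txnrd1 had 81.7 CPM (WT) and 80.8 CPM (cKO), with a log2 ratio of -0.02 (interval -0.11 to 0.07). Txnrd2 had 14.5 and 14.7 CPM, a ratio of 0.02 (interval -0.20 to 0.24). Txnrd3 was higher in cKO, with 14.5 and 18.1 CPM, or 1.24-fold (log2 ratio 0.31, interval 0.11 to 0.52), and 90.6% of measured genes had a lower ratio. All of its counts were on Txnrd3-201. The summed counts of the 3 reductases had a ratio of 0.04 (interval -0.04 to 0.11).

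Among the remaining 4 genes, Selenow had 261 CPM (WT) and 255 CPM (cKO), with a log2 ratio of -0.04 (interval -0.09 to 0.01). Msrb1 had 13.7 and 13.2 CPM (ratio -0.05, interval -0.27 to 0.18), and Selenoo had 25.4 and 24.4 CPM (ratio -0.06, interval -0.22 to 0.11). Selenoh was the member with the highest ratio, with 19.5 and 25.3 CPM, or 1.30-fold higher in cKO (log2 ratio 0.38, interval 0.20 to 0.56). Of all measured genes, 1032 (6.48%) had a ratio as high or higher. Markers of several cell types were counted by the sign of their ratio alone. Above 0 were 6 of 6 neuron markers (summed TPM 4139 and 4830), 5 of 5 of red blood cells (4501 and 6742), 3 of 3 of ependyma (22.8 and 27.1), 3 of 3 of Schwann cells (1149 and 1324) and 4 of 4 of endothelium (179.9 and 200.4). Below 0, as Gpx3 was, were 8 of 8 markers of mature oligodendrocytes, 3 of 3 of their precursors (204 and 186), 4 of 4 of meninges and fibroblasts (1149 and 1047; ratios -0.37 to -0.11) and 4 of 5 of microglia (142 and 135). Among the markers counted by sign, intervals held 0 for Pecam1 and Cdh5 (endothelium) and for Foxj1 and Tmem212 (ependyma). They also held 0 for Cx3cr1, P2ry12 and C1qa (microglia). Astrocyte markers (2819 and 2771) and the 2 measured markers of skeletal muscle lay on both sides of 0. The part of these cell types in the Selenoh, Txnrd3 and Gpx3 ratios was not tested.

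The members were also compared with each other. Of the 45 pairs of genes, 10 had ratio intervals that did not overlap, and each of these pairs held Selenoh or Txnrd3. The same count was not made for pairs of other genes, and these intervals cover counting error alone. The count is therefore a description without a background. Selenoh lay apart from Gpx3, Gpx4, Txnrd1, Msrb1, Selenow and Selenoo, and Txnrd3 lay apart from Gpx3, Gpx4, Txnrd1 and Selenow. The genes were also grouped by the most abundant WT transcript. The 6 genes with a junction more than 50 nt past the TGA lay between -0.16 (Gpx3) and 0.38 (Selenoh). The 4 without one lay between -0.06 (Selenoo) and 0.31 (Txnrd3). These ranges overlapped, but each is set by its highest and lowest gene alone. The part of nonsense-mediated decay in these ratios was not tested. This grouping does not hold for every form: Txnrd2, counted among the 4, also has forms with such a junction, described with its transcripts.

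**Figure D3:**
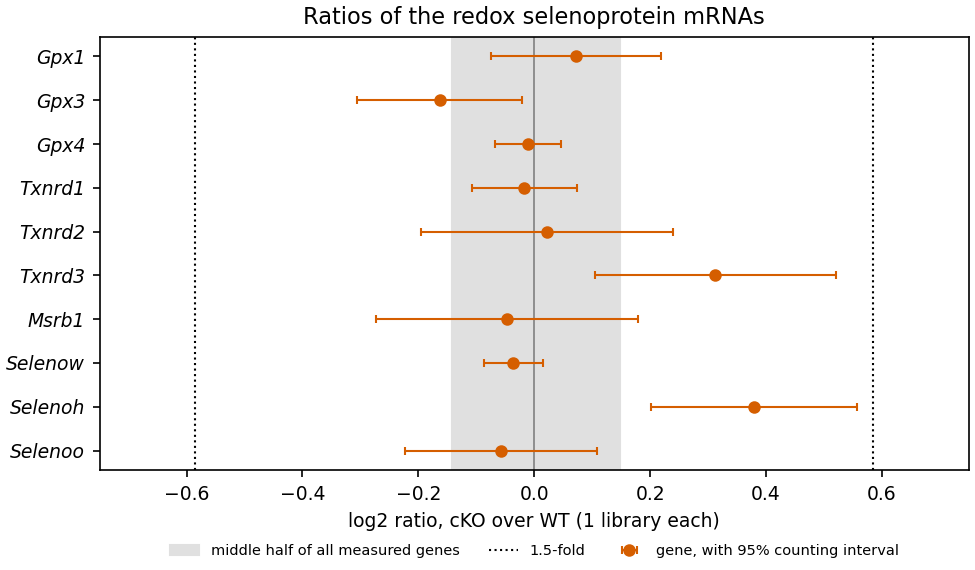
Log2 ratio of cKO over WT for each gene with its exact 95% counting interval, 1 library per group; the grey band is the range between the quartiles of all measured genes and dotted lines mark 1.5-fold. Selenoh and Txnrd3 lie to the right of the band, Gpx3 just to its left, and all points lie inside the dotted lines.

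Transcripts were examined next, since a stable gene total can hide a shift between forms. Of the 51 transcripts, 44 had counts and 17 held at least 10% of their gene's counts in a library. Of the 23 that passed the 1 CPM filter, 3 were higher (Gpx1-202, Txnrd2-203 and Txnrd1-207) and 1 lower (Txnrd2-215) by the 1.5-fold rule, while 13.2% of the 32757 measured transcripts were higher and 12.9% lower. Transcripts of one gene share most of their exons, and the division between them is the authors' estimate. Shares of counts below have exact binomial intervals. These, and the intervals of transcript ratios, take the estimated counts as observed, so they leave out the error of that division.

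Gpx1 was divided between Gpx1-201, which carries the annotated selenocysteine codon, and Gpx1-202, which does not. Gpx1-201 had 1118 (WT) and 1203 (cKO) counts, with a share of 84.6% (interval 81.6% to 87.2%) in WT and 67.4% (64.2% to 70.4%) in cKO. Gpx1-202 had 189 and 573 counts and a share of 14.3% (11.7% to 17.2%) in WT and 32.1% (29.0% to 35.3%) in cKO, a log2 ratio of 1.24 (interval 0.90 to 1.59). The ratio of Gpx1-201 was -0.26 (interval -0.43 to -0.09). The intervals of the shares did not overlap between the libraries for either transcript, but they leave out the error of dividing reads between these forms.

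The forms of Gpx1 differ by little sequence, which is shown across their single junction with the first exon in lower case and the start of the second in capitals (chromosome 9, plus strand, GRCm38).
Gpx1-201: ttcggacaccagGAGAATGGCAAGAATGAA
Gpx1-202: ttcggacaccagAATGGCAAGAATGAA
Both use the donor that ends the first exon at 108339558. The second exon begins at 108339777 in Gpx1-201 and 3 nt further on, at 108339780, in Gpx1-202. Gpx1-202 is annotated to start 189 nt later and to end 93 nt earlier. It still contains the bases of the selenocysteine TGA (108339451 to 108339453), but its annotated start codon lies 27 nt beyond them, so in the annotation the TGA is outside its coding sequence. Reads that tell the forms apart are therefore those over the 3 nt at the junction and those in the parts of the ends that only Gpx1-201 has.

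Txnrd2 had the largest shift of shares among the members. Txnrd2-215, which keeps the 1000 nt last intron (chromosome 16, 18477858 to 18478857) in its 3′ untranslated region, had 422 (WT) and 313 (cKO) counts. Its share was 68.1% (interval 62.6% to 73.2%) in WT and 38.7% (33.9% to 43.6%) in cKO, and its log2 ratio -0.79 (interval -1.10 to -0.49). Txnrd2-203, with the same coding sequence and that intron removed, had 66 and 217 counts, a share of 10.6% and 26.8% and a ratio of 1.35 (interval 0.78 to 1.96). The annotation gives Txnrd2-215 support level 5 and Txnrd2-203 level 1. Removal of the intron leaves a junction 83 nt past the TGA. The 3 transcripts with a selenocysteine codon and this intron removed had 130 and 383 counts together, 21.0% and 47.3% of the gene, with a ratio of 1.20 (interval 0.78 to 1.63). Summed over all 4 forms with the codon, Txnrd2 had 552 and 696 counts and a ratio of -0.03 (interval -0.26 to 0.21). Txnrd2-215 is 2874 nt long and Txnrd2-203 is 1905 nt, and TPM divides by length: Txnrd2 went from 15.2 to 19.1 TPM while its CPM stayed at 14.5 and 14.7.

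The other genes with several forms shifted less. For Selenoh, Selenoh-203 went from 557 to 1026 counts (66.7% and 73.5% of the gene; log2 ratio 0.52, interval 0.31 to 0.73) and Selenoh-202 from 177 to 217 counts (ratio -0.07, interval -0.49 to 0.35). Both carry the same coding sequence. For Selenoo, Selenoo-202, annotated as a target of nonsense-mediated decay and without the selenocysteine codon, held a share of 17.8% (WT) and 12.6% (cKO), with a ratio of -0.55 (interval -0.99 to -0.12), and the full-length Selenoo-201 had a ratio of 0.03. Exons of Selenoo-201 overlap exons of Tubgcp6 on the other strand between 89098632 and 89100340 of chromosome 15, by up to 510 nt in a single exon. Tubgcp6 had 13.1 TPM in WT and 18.6 TPM in cKO. Without a stated strand setting, the Selenoo counts over these exons are uncertain. For Txnrd1, Txnrd1-206 held 84.0% and 87.7% and Txnrd1-208, which differs in its 5′ and 3′ untranslated regions, 11.1% and 8.22%. For Msrb1, Msrb1-202 held 70.0% and 66.0%, and Msrb1-201, with a longer last exon, 30.0% and 34.0%, with overlapping intervals. Gpx3-201 and Gpx4-202 held over 95% of their genes in both libraries, and Selenow-201 all of the Selenow counts. Txnrd1-207, a retained-intron form higher by the rule, had only 36 and 84 counts.

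A share that differed by at least 10 percentage points between the libraries was found in 2 of the 8 members with counts on more than 1 transcript, Gpx1 (17.8 points) and Txnrd2 (29.4 points). Such a difference was found in 23.6% of the 9168 genes of at least 10 CPM with counts on 2 or more transcripts, so the members' 2 of 8 lay near the background. The share of counts on transcripts with an annotated selenocysteine codon was 100% in both libraries for Gpx3, Txnrd3, Msrb1 and Selenow. It was 99.1% and 99.2% for Gpx4, 98.3% and 97.6% for Txnrd1, 96.2% and 96.0% for Selenoh, 89.0% and 86.0% for Txnrd2, and 82.2% and 87.4% for Selenoo. Gpx1 was the member in which this share moved most, from 84.6% to 67.4%.

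**Figure D4:**
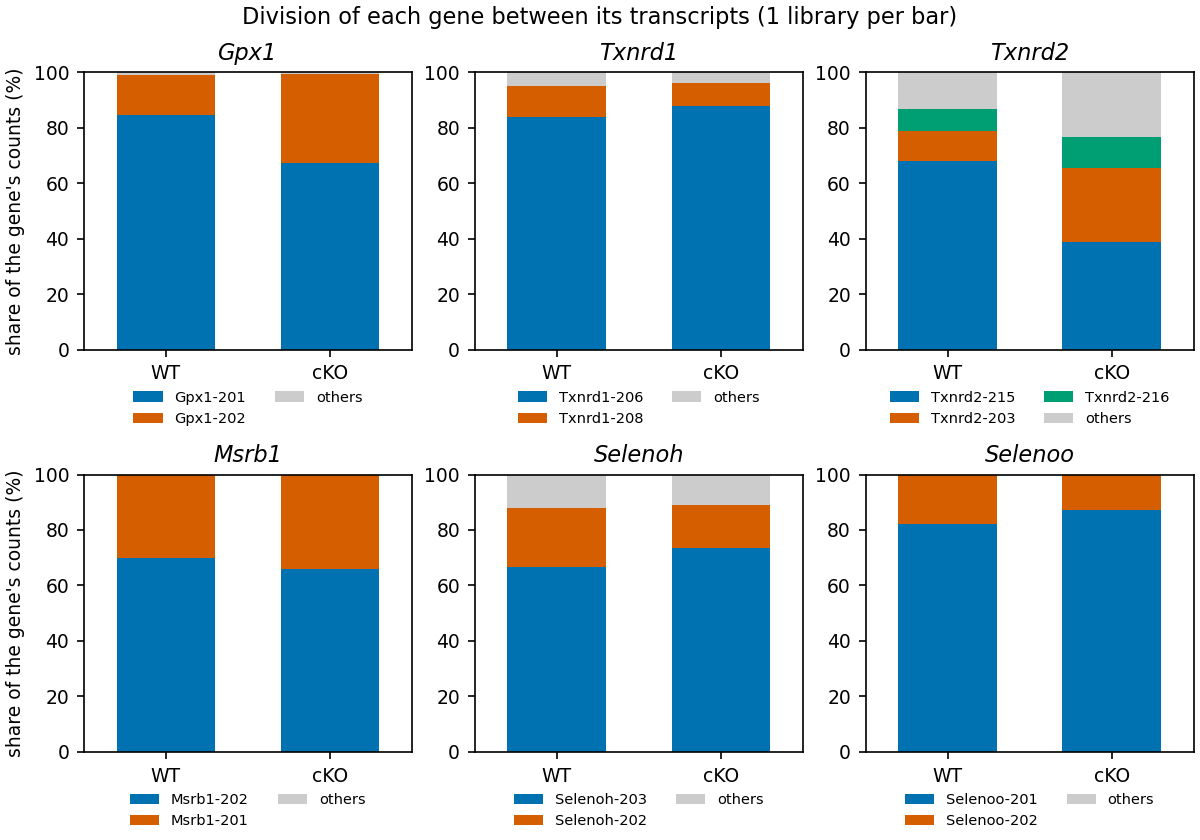
Share of each gene's estimated counts held by its transcripts in the WT and cKO libraries (stacked bars, percent, 1 library per bar) for the 6 genes with more than 1 transcript of at least 10%; grey is all other transcripts. The blue segment of Gpx1 goes from 84.6% to 67.4% and that of Txnrd2 from 68.1% to 38.7%, while in the other 4 genes the segments differ by less than 7 points.

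The genes that work with the redox selenoproteins were taken from 9 lists of 88 different genes (Secisbp2l included), of which 81 were measured; 1 was higher and 1 lower by the 1.5-fold rule. Among the other 14 selenoproteins, 11 were measured with a median log2 ratio of -0.12, against -0.01 for the 10 redox members, and 1 was higher and 0 lower. The one higher was Selenoi, an ethanolamine phosphotransferase (9.34 TPM in WT and 34.0 TPM in cKO; ratio 2.13). Selenop, the selenium carrier and most abundant of them by CPM, had a ratio of -0.17. In the list for selenocysteine insertion and selenium supply, 0 of 12 were higher or lower and the median was 0.03. Secisbp2 itself had 12.1 and 13.5 TPM and a ratio of 0.07, and Eefsec, the elongation factor for selenocysteine, had 0.37 (interval 0.16 to 0.58).

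Partners and substrates of the enzymes were examined in the same way, with the most abundant gene of each list taken by CPM. Of 15 genes of the thioredoxin and peroxiredoxin system 0 passed the rule. By sign alone 12 of 15 lay below 0, some with intervals that held 0, such as Txn2 and Prdx3. The list median of -0.12 lay inside the quartiles of all measured genes, -0.14 and 0.15. Prdx2, a peroxiredoxin that thioredoxin reduces, was the most abundant (311 and 323 TPM; ratio -0.01), Txn1, the cytosolic thioredoxin that TXNRD1 recycles, had a ratio of -0.12, and Txnip, an inhibitor of thioredoxin, had the lowest of the list, -0.40 (interval -0.49 to -0.31). Of 13 genes of the glutathione system 0 passed, with a median of -0.01, and Slc3a2, the heavy chain of the cystine transporter, the most abundant, had 0.09. Gsr, which regenerates the glutathione that peroxidases use, had 0.05. Relatives of the members that use cysteine in place of selenocysteine were measured for 5 of 7 genes, 0 passed, and the median was -0.20. The most abundant of these by CPM, Gpx7, had 0.08, and Msrb2, the mitochondrial methionine sulfoxide reductase, had -0.53 (interval -0.83 to -0.22).

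For the processes that these enzymes limit, 0 of 5 genes of superoxide and hydrogen peroxide removal passed the rule (median -0.05; Sod1, the most abundant, 0.09), as did 0 of 8 genes of Nrf2 regulation and targets (median -0.04; Mafg, the most abundant, 0.01) and 0 of 3 Mical genes, whose products oxidise the actin methionines that MSRB1 repairs (median 0.02; Mical3, the most abundant, 0.01). Nfe2l2, which encodes Nrf2, had a ratio of -0.24. Of 11 measured genes of lipid peroxidation and ferroptosis, the process that GPX4 holds back, 1 was lower and 0 higher, with a median of -0.00. The one lower was Ftl1, the ferritin light chain (1050.0 and 648 TPM; ratio -0.74, or -0.89 summed with the gene that shares its exon); it moved with the mature oligodendrocyte markers, whose part in it was not tested. Fth1, the heavy chain and most abundant of the list, had -0.27. Acsl4, which builds the lipids that are peroxidised, had 0.18.

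**Figure D5:**
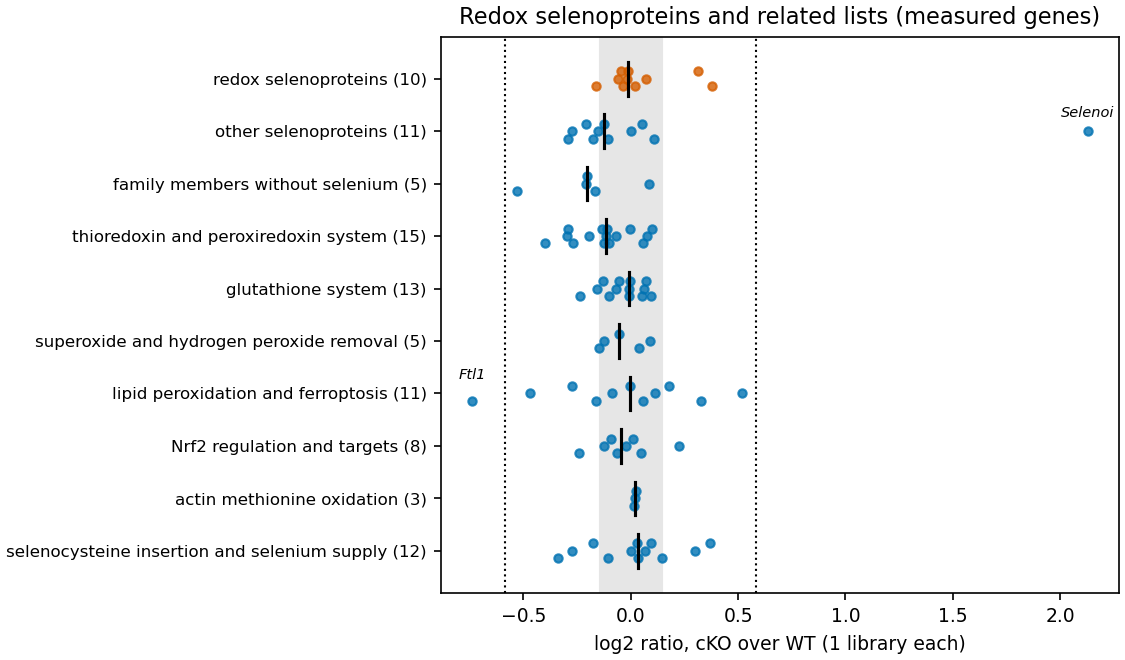
Log2 ratio of cKO over WT for every measured gene of the 10 redox selenoproteins (orange) and the 9 related lists (blue), with list medians as black bars, the quartile range of all measured genes in grey and 1.5-fold as dotted lines. Selenoi at 2.13 and Ftl1 at -0.74 are the points outside the dotted lines.

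In the 300-base promoter windows of RefSeq (GRCm38.p6) around the gene starts, all 10 members were found with 15 windows in all. The core of the antioxidant response element, TGACNNNGC on either strand, was present in 1 of the 15, a window of Txnrd1, and in 12.4% of all 32851 windows. A match of letters is a description and not a site.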

How the data were processed

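The deposited tables give estimated counts, TPM and FPKM of genes and of transcripts for both libraries, according to the file headers. Counts are whole numbers but follow FPKM times transcript length. For low-count genes with 1 listed transcript (8525 in WT), this product lay within 0.2 of an even number in 34.4% and of an odd one in 17.9%. From this lean 1 fragment was taken as 2 counts, an assumption on which the printed intervals rest. CASAVA, Bowtie2 2.3.2 and GRCm38.p6 are listed without a role in the submitters' processing notes. How reads were counted, with which annotation and strand, is not given in the sources used here. Member positions were the same in the files and in GENCODE M21.

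Counts were scaled with TMM (edgeR 4.0.16, R 4.3.3) to CPM, and log2 ratios had no pseudocount. Intervals are exact Clopper-Pearson (ratios, shares) and Poisson (TPM), from scipy 1.17.1. The interval script was tested on simulated data. DESeq2 1.42.0 gave alternative size factors. With 1 library per group no significance test was run. All 10 members were named, with transcripts of at least 10% of a gene, list genes past the size rule and the most abundant gene of each list; further list genes were named for their roles or extreme ratios after their values were seen. Members and lists were chosen with earlier results of these data known, and the rule on transcript shares was added after the values were seen. No column of other samples was used.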

Additional observations from a re-analysis of the deposited data

How the results depend on the processing

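Counts of members past the rule (0 higher, 0 lower) and the members' median kept their values or moved by less than the counting intervals under the 14 alternatives (other scalings, units, filters, transcript sets, intervals and limits), with 1 exception, a limit of 0.32 on the log2 scale (1 higher, Selenoh). Txnrd2 was the only member whose ratio left its interval, at 0.33 and 0.31 on deposited TPM (pseudocounts 0.1 and 1) and 0.29 on FPKM, against 0.02 on counts. Gpx4, Txnrd1 and Selenoo, all near 0, had a ratio of either sign, between -0.07 and 0.03. List genes higher numbered 3 at the 0.32 limit against 1, and list genes lower numbered 5 at the 0.32 limit, 0 at 2-fold, and 2 on TPM with either pseudocount or on FPKM (Alox5 with Ftl1), against 1. Ranked by the most abundant transcript, 4 members in WT and 2 in cKO changed rank. Over all genes, 392 higher and 544 lower became 190 and 306 with a 5 CPM filter, 659 and 831 with none, 992 and 1248 at the 0.32 limit, 130 and 183 at 2-fold, and 300 and 338 on TPM with a pseudocount of 1. No replicate could be left out, and no paired analysis was possible because each group has 1 library. Depth limits transcripts with few counts, such as Txnrd2-203.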
